A study of Mus musculus with 12 samples.

Results

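The 10 core circadian clock genes Arntl, Clock, Npas2, Nr1d1, Nr1d2, Per1, Per2, Per3, Cry1 and Dbp were followed through RNA sequencing of livers from apolipoprotein knockout mice. The genes were taken by symbol from a table of 23284 genes, and each of the 10 had a row. All livers came from mice labelled Apoa1-/- Apoe-/-, here called DKO, and some of these mice also carried a human APOA1 transgene, here called DKO/hA1. Of the 12 libraries, 7 were from DKO mice, 4 of them fed chow and 3 fed Western diet, and 5 from DKO/hA1 mice, 2 fed chow and 3 fed Western diet. Each diet was given for 22 weeks. Chow is the standard laboratory diet and the Western diet is high in fat. The double knockout is shared by all groups, so no library stands for a liver with its own Apoa1 and Apoe genes. The promoter of the transgene, the sex and age of the mice and the hour of day at which livers were taken are not given in the sources used here. The labels do not say that the samples of a group came from separate mice, so p-values measure the spread between these samples, which may in part be technical.

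The circadian clock is a feedback loop of transcription that runs through each day in nearly every cell. BMAL1, the product of Arntl, pairs with CLOCK or its paralog NPAS2 and activates genes through E-box motifs. Among these targets are the Per and Cry genes, whose proteins return to inhibit the pair, and Nr1d1 and Nr1d2, whose proteins REV-ERB alpha and REV-ERB beta repress Arntl. Dbp is another target and encodes a transcription factor that drives output genes through D-box motifs. In mouse liver the transcripts of Arntl and Npas2 peak about opposite to those of Dbp, and Nr1d1, Dbp, the Per genes and Cry1 peak in succession. The liver clock is also known to follow feeding time.

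Values are FPKM, fragments scaled to transcript length and to the size of the library, which allows levels to be compared between genes. Library sums ran from 379689 to 578927 FPKM, and 10298 to 11005 genes reached 1 FPKM in each library. Relative depth, read from the steps between low values, lay between 0.525 and 1.29 of DKO chow replicate 1. It was lowest in DKO chow replicate 2 (0.525) and DKO Western diet replicate 3 (0.547). Apoa1 stood at 30.4 to 77.4 FPKM in the 7 libraries without the transgene and at 122 to 240.0 in the 5 with it, and Apoe ranged from 12.9 to 89.8 FPKM over all 12. The table does not separate human APOA1 from mouse Apoa1, and both genes named in the knockout label were thus detected in every library. All 9 hepatocyte markers were detected, with summed levels of 7070 to 16900 FPKM. In bulk tissue, fewer cells of a type and less RNA per cell cannot be told apart.

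Promoter stretches are shown for 4 members, because the letters of the clock's own regulatory motifs are found in them and these members moved between libraries. Windows from 250 bases before to 50 bases after a transcription start were read from RefSeq (GRCm38.p6), in which 9 of the 10 members, all but Per2, had 13 windows. The Per1 stretch (chr11:69098699-69098948, + strand) and the Cry1 stretch (chr10:85185055-85185304, - strand) each end just before a start. Both have the E-box CACGTG in capitals. The start used for Per1 is an internal one, within the annotated gene (69095108 to 69109965). The Per3 stretch (chr4:151044666-151044915, - strand) holds the D-box TTATGTAA at 2 places, in capitals. For Arntl 30 bases just after a start are given (chr7:113207530-113207559, + strand), with TAGGTCA, the core of the element bound by REV-ERB and ROR proteins, in capitals. That start is also internal, within the annotated gene (113178471 to 113314126).
Per1: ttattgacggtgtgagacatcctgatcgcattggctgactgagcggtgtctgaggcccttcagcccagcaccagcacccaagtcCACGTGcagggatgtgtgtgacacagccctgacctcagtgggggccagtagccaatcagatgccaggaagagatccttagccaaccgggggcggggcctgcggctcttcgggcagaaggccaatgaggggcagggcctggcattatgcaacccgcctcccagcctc
Cry1: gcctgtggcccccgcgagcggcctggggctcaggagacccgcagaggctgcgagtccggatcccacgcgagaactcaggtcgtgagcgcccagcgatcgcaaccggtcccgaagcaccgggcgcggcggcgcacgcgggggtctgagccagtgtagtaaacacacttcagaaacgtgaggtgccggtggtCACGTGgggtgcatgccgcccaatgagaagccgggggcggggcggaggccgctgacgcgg
Per3: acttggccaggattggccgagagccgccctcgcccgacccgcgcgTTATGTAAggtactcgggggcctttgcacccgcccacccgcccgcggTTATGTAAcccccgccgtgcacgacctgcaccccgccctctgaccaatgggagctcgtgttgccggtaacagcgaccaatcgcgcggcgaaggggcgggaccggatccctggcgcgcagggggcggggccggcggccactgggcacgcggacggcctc
Arntl: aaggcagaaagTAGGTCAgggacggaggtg
Both strands were searched. The E-box CACGTG, whose letters read the same on both strands, was in 2 of the 13 member windows (Per1 and Cry1). It was in 7.15% of all 32851 windows. Its variant CACGTT was in 2 of the 13 member windows (Cry1 and Nr1d1) and in 4.68% of all. TTATGTAA was in 1 of the 13 member windows (Per3) and in 0.938% of all windows. The related D-box TTACGTAA was in 0 of the 13 and in 0.119% of all. TAGGTCA was in 1 of the 13 member windows (Arntl) and in 2.61% of all windows. These matches describe letters in short windows and no binding was measured.

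The clock transcripts differed more between replicate libraries of the same group than a typical liver transcript did. The residual SD within groups, on the log2(FPKM + 1) scale, had a median of 0.802 over the 10 members and 0.200 over all 11546 genes tested. Dbp had a residual SD of 2.07, the 9th largest of all tested genes. Per3 (1.06), Arntl (1.05) and Per1 (0.997) ranked 104th, 108th and 125th. Even Clock, the steadiest member at 0.417, was more variable than 89.1% of tested genes. The range between the highest and lowest library was widest in DKO chow, with a median of 1.64 over the members against 0.409 over all tested genes. A range grows with the number of libraries, and DKO chow held 4 against 2 or 3 elsewhere. The member median was 1.13 on Western diet in either genotype. Nr1d1 (0.503 against 2.77) and Cry1 (0.696 against 1.89) had narrower ranges in DKO chow than in DKO Western diet. In DKO chow 6 genes had a wider range than Dbp.

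**Figure D1:**
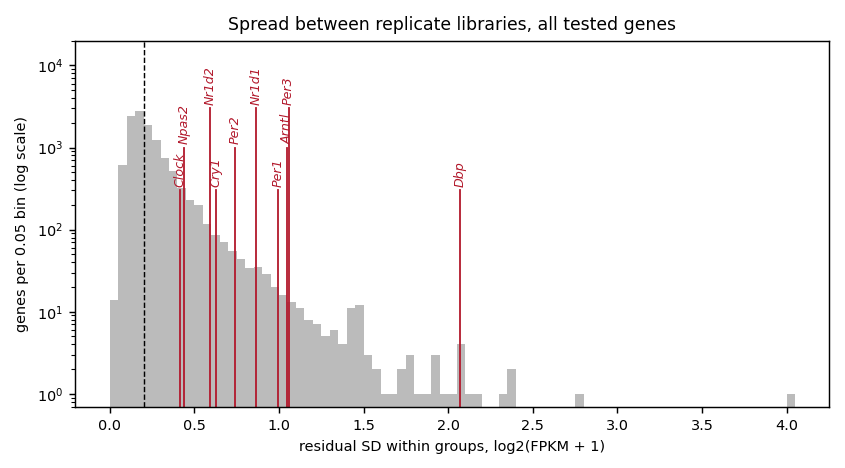
Histogram of the residual SD within groups of all 11546 tested genes on the log2(FPKM + 1) scale, with the number of genes per bin on a log axis. Red lines mark the 10 clock members (heights only separate the labels) and the dashed line the median of all genes (0.200); every member lies to the right of it, from Clock (0.417) to Dbp (2.07).

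Arntl encodes BMAL1, the indispensable activator of the loop (chromosome 7, 113178471 to 113314126, GRCm38). Its level in DKO chow replicates 1 to 4 was 0.570, 0.416, 10.5 and 8.37 FPKM. The 4 libraries of this single group thus held both the lowest and the highest Arntl levels of all 12, a 25.3-fold range. Arntl stood at 3.31, 1.83 and 2.98 FPKM in DKO Western diet replicates 1 to 3, at 6.41 and 9.38 in the DKO/hA1 chow pair, and at 1.27, 0.755 and 2.76 in DKO/hA1 Western diet. The DKO/hA1 chow libraries lay above all Western diet libraries of either genotype, between the low and the high DKO chow libraries in replicate 1 and in the range of the high ones in replicate 2.

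Clock and Npas2 encode the alternative partners of BMAL1. Clock (chromosome 5, 76209868 to 76305603) was at 3.47, 3.63, 9.99 and 7.29 FPKM in DKO chow, at 5.44, 4.52 and 5.0 in DKO Western diet, at 7.10 and 7.00 in DKO/hA1 chow, and at 3.54, 3.55 and 5.60 in DKO/hA1 Western diet. In DKO chow it was low in replicates 1 and 2 and high in 3 and 4, as Arntl was, and its range over all 12 libraries was 2.88-fold. Npas2 (chromosome 1, 39193702 to 39363240) had the lowest level of the members. It was listed at 0 in DKO chow replicates 1 and 2 and reached 0.984 and 1.35 FPKM in replicates 3 and 4. It stood at 0.796 and 1.44 FPKM in DKO/hA1 chow, and at 0.338, 0.0933 and 0 in DKO Western diet. The DKO/hA1 Western diet values were 0.110, 0.0555 and 0.369 FPKM. Of the libraries at 0, DKO chow replicate 2 and DKO Western diet replicate 3 had the lowest relative depths of all (0.525 and 0.547). Only 2 libraries reached 1 FPKM, so Npas2 passed the level filter at its limit, and its fold changes are compressed by the 1 added before the log2. Its high libraries were those high in Arntl.

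Dbp, a PAR bZIP activator of liver output genes (chromosome 7, 45705100 to 45710203), showed the reverse order with the widest range of any member. Its levels in DKO chow replicates 1 to 4 were 53.2, 50.1, 0.360 and 1.18 FPKM, a 148-fold range within the group. It was at 2.05 and 0.894 FPKM in DKO/hA1 chow, at 21.7, 16.6 and 2.39 in DKO Western diet, and at 43.3, 39.6 and 5.74 in DKO/hA1 Western diet. Both transgenic chow libraries thus resembled DKO chow replicates 3 and 4 in Dbp, and replicate 3 was the lowest library in each Western diet group. The ratio of Arntl to Dbp, both in FPKM, was 0.0107, 0.00829, 29.2 and 7.07 in DKO chow replicates 1 to 4. The DKO/hA1 chow libraries gave 3.13 and 10.5, against 0.152, 0.110 and 1.25 in DKO Western diet, and 0.0293, 0.0191 and 0.481 in DKO/hA1 Western diet. Arntl exceeded Dbp in both DKO/hA1 chow libraries, in DKO chow replicates 3 and 4 and in DKO Western diet replicate 3, and was below it in the other 7.

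The labels give each sample a code whose meaning they do not state. Its first part is here called the code number, and the second part differs between samples that share a number. DKO chow replicate 3 and both DKO/hA1 chow libraries share the number 57, and these 3 were among the 4 libraries with the highest Arntl and the 4 with the lowest Dbp. The remaining one of those 4, DKO chow replicate 4, has the number 59, and DKO chow replicates 1 and 2 have 54 and 56. The number 41 is shared by replicate 1 of DKO and of DKO/hA1 on Western diet, the libraries highest in Nr1d1 (43.4 and 41.6 FPKM). No number is shared between diets. Values from fits that take the code number as a random block are given beside the comparisons. Only 41 and 57 are held by more than 1 library, so these fits estimate the block from the libraries with those numbers.

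**Figure D2:**
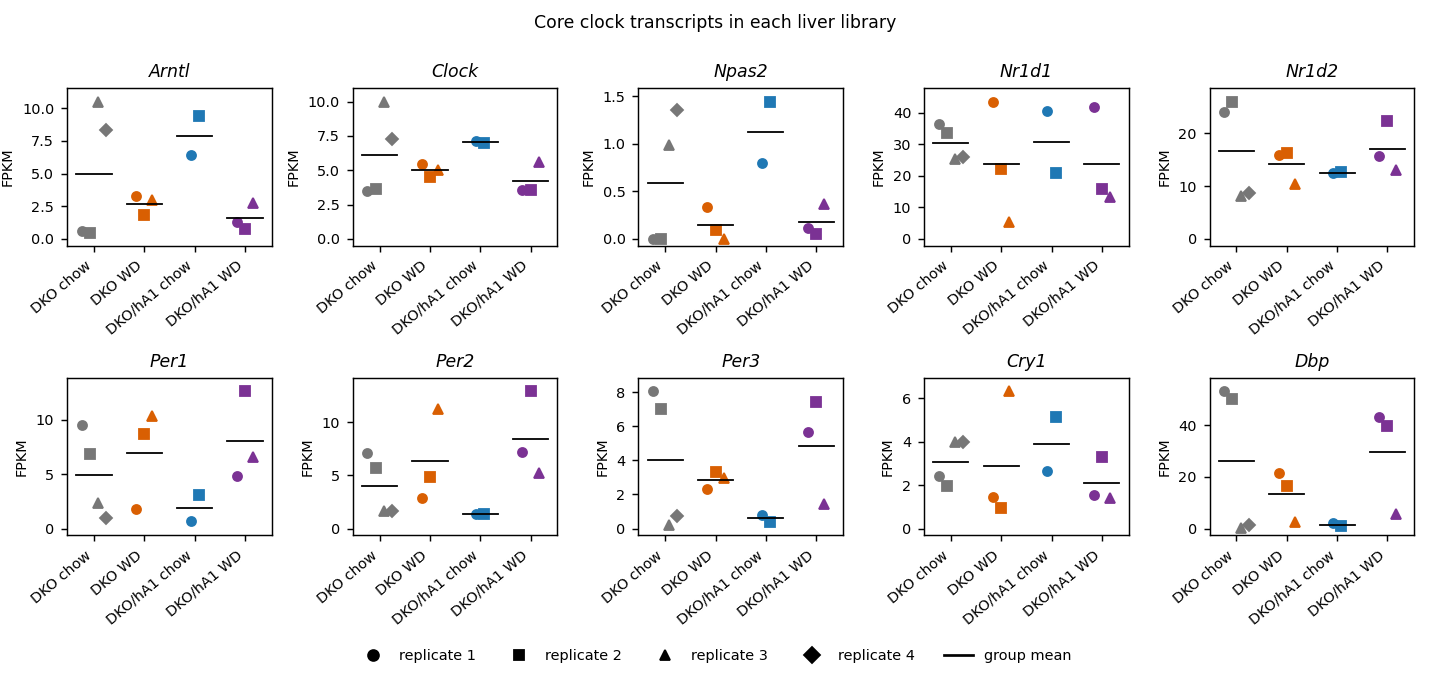
FPKM of the 10 core clock genes on linear axes, 1 panel per gene, with a marker for each library shaped by replicate number, coloured by group and placed above its group (WD, Western diet); horizontal bars are group means. DKO chow (grey) splits for every gene into replicates 1 and 2 against 3 and 4, as in Dbp with 53.2 and 50.1 against 0.360 and 1.18.

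The period genes encode the inhibitors that accumulate after activation by BMAL1. Per3 (chromosome 4, 150997018 to 151044707) was at 8.04, 7.01, 0.179 and 0.728 FPKM in DKO chow, a 44.9-fold range. It was at 0.809 and 0.394 FPKM in DKO/hA1 chow, at 2.34, 3.32 and 2.96 in DKO Western diet, and at 5.66, 7.41 and 1.44 in DKO/hA1 Western diet. Per3 ranked the 4 DKO chow libraries in the same order as Dbp. Per2 (chromosome 1, 91415977 to 91459351) was at 7.14, 5.71, 1.68 and 1.61 FPKM in DKO chow and at 1.33 and 1.34 in DKO/hA1 chow. On Western diet it stood at 2.90, 4.89 and 11.2 FPKM in DKO and at 7.17, 12.9 and 5.2 in DKO/hA1. Every Western diet library was thus above both transgenic chow libraries and above DKO chow replicates 3 and 4. Per1, which is also induced by glucocorticoids and cyclic AMP (chromosome 11, 69095108 to 69109965), was at 9.51, 6.81, 2.30 and 0.980 FPKM in DKO chow. It was at 0.684 and 3.12 FPKM in DKO/hA1 chow, at 1.75, 8.73 and 10.3 in DKO Western diet, and at 4.84, 12.6 and 6.55 in DKO/hA1 Western diet. The 2 highest Per1 libraries, DKO/hA1 Western diet replicate 2 and DKO Western diet replicate 3, were also the 2 highest for Per2.

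Nr1d1 and Nr1d2 encode the repressors of Arntl. Nr1d1 (chromosome 11, 98767932 to 98775377) was the most abundant member, with a mean of 27.0 FPKM over the 12 libraries. It was at 36.4, 33.5, 25.2 and 26.0 FPKM in DKO chow, a 1.44-fold range and the smallest of any member in that group on the log2 scale. On Western diet it spread widely, with 43.4, 22.0 and 5.50 FPKM in DKO and 41.6, 15.8 and 13.4 in DKO/hA1, and it was at 40.4 and 20.7 in DKO/hA1 chow. Nr1d1 kept no single order with Dbp. Its highest library, DKO Western diet replicate 1, had Dbp at 21.7 FPKM, and its lowest, DKO Western diet replicate 3, had Dbp at 2.39. By contrast, DKO/hA1 chow replicate 1 had Nr1d1 at 40.4 FPKM with Dbp at 2.05. DKO/hA1 Western diet replicate 2 had Nr1d1 at 15.8 FPKM with Dbp at 39.6. Nr1d2 (chromosome 14, 18204056 to 18239106) was at 24.0, 26.0, 8.16 and 8.65 FPKM in DKO chow, at 16, 16.3 and 10.4 in DKO Western diet, at 12.4 and 12.7 in DKO/hA1 chow and at 15.8, 22.4 and 13.0 in DKO/hA1 Western diet. Unlike Nr1d1, it had its 2 highest and its 2 lowest levels in DKO chow.

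Cry1, a repressor that follows the period genes in the cycle (chromosome 10, 85131700 to 85185054), was at 2.44, 1.95, 3.97 and 3.98 FPKM in DKO chow and at 2.66 and 5.15 in DKO/hA1 chow. On Western diet it was at 1.46, 0.923 and 6.32 FPKM in DKO and at 1.53, 3.31 and 1.41 in DKO/hA1. In DKO chow it was high where Arntl was high. The highest level of all belonged to DKO Western diet replicate 3, a library in which the members were combined as in no other. That library had the lowest Nr1d1 (5.50 FPKM), the highest Cry1 (6.32) and the second highest Per1 (10.3) and Per2 (11.2), with Dbp at 2.39 and Npas2 listed at 0. Its relative depth was low, 0.547.

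**Figure D3:**
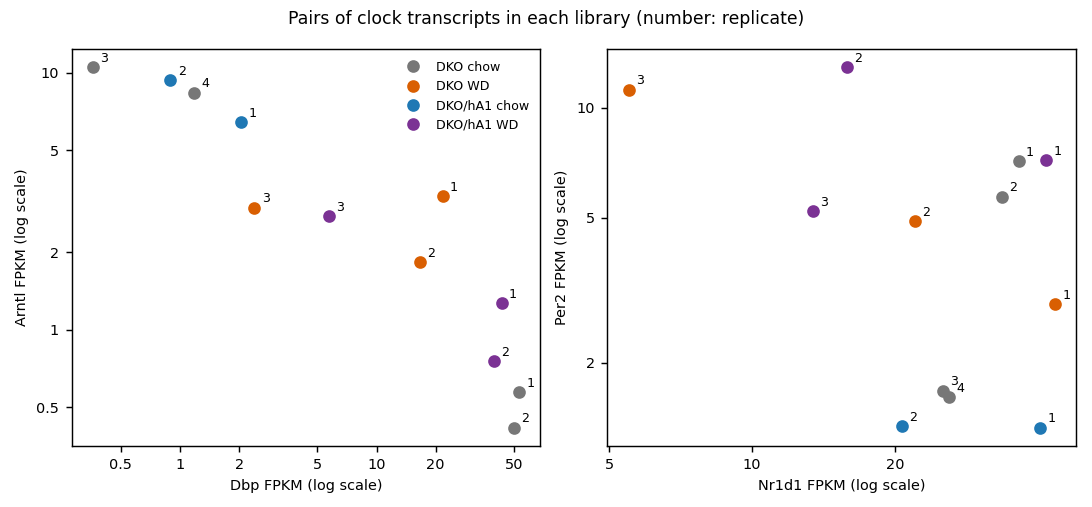
Each point is a library, numbered by replicate and coloured by group, with FPKM on log axes: Arntl against Dbp (left) and Per2 against Nr1d1 (right). In the left panel the libraries run from DKO chow replicate 3 (Dbp 0.360, Arntl 10.5) to DKO chow replicates 1 and 2, with the Western diet libraries between; in the right panel DKO Western diet replicate 3 stands at the far left with Nr1d1 at 5.50.

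Reads of a member could be shared with a gene on the opposite strand where the sequencing did not mark strand, which the labels do not state. In the GENCODE M21 annotation Nr1d1 shares 263 exonic bases with Thra, and Dbp shares 539 with Sphk2. Thra, a thyroid hormone receptor gene, ranged from 2.07 to 6.45 FPKM, and in DKO chow it was at 2.87, 2.82, 5.79 and 6.45. Sphk2, a sphingosine kinase gene, ranged from 9.10 to 20.1 FPKM and was at 11.3, 9.92, 11.8 and 16.4 in DKO chow. The part of shared reads in the levels of Nr1d1 and Dbp was not tested.

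The effect of Western diet in DKO/hA1 mice gave the largest fitted differences of the members, and none passed the test. Dbp (log2 fold change 3.26 ± 1.68, SE, adjusted p = 0.45), Per2 (1.93 ± 0.60, adjusted p = 0.16), Per3 (1.70 ± 0.86) and Per1 (1.68 ± 0.81) were fitted higher on Western diet. Arntl (-1.83 ± 0.86, adjusted p = 0.39), Npas2 (-0.84 ± 0.36), Cry1 (-0.67 ± 0.51) and Clock (-0.64 ± 0.34) were fitted lower, with Nr1d1 at -0.46 ± 0.70 and Nr1d2 at 0.39 ± 0.48. These values come from limma over all 4 groups with Benjamini-Hochberg adjustment over all genes tested. By that rule 0 of 10 members and 1.43% of all genes were called. At an unadjusted p below 0.05 there were 2 members, Per2 and Npas2, beside 13.5% of all genes. The 3 Western diet and 2 chow libraries did not overlap for 8 of the 10 members, all except Nr1d1 and Cry1, beside 30.5% of all genes. When limma took the code number as a random term, the differences were 1.52 for Dbp (adjusted p = 0.82), 0.89 for Per3, 1.67 for Per2, 1.60 for Per1 and -1.03 for Arntl (adjusted p = 0.75). In that fit Clock was at -0.28, Cry1 at -0.44, Nr1d1 at -0.80 and Nr1d2, with the other sign, at -0.106, and 0 of 10 members were called. Leaving out DKO/hA1 chow replicate 1 took Nr1d1 to -0.00987 and Per1 to 1.03, and leaving out replicate 2 of that group took Cry1 to -0.288. Macrophage and Kupffer cell markers moved with this contrast, with 7 of 12 called higher and 0 lower and summed levels of 212 to 574 FPKM on chow and 1440 to 2170 on Western diet. Their part in the clock differences was not tested.

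In DKO mice without the transgene, Western diet and chow libraries overlapped for every member. The fitted differences ran from -0.78 ± 0.59 (SE) for Nr1d1 to 0.51 ± 0.50 for Per2. Both limits rested on DKO Western diet replicate 3, without which Nr1d1 was at -0.0112 and Per2 at 0.0655. Arntl was at -0.15 ± 0.72, Dbp at 0.16 ± 1.41 (adjusted p = 0.98) and Per3 at 0.089 ± 0.72, with standard errors several times their size. With limma 0 of 10 members were called, beside 0.113% of all genes, and 0 had an unadjusted p below 0.05, beside 11.8%. Non-overlap of the groups was found for 12.6% of all genes. The Western diet values of Arntl, Clock, Nr1d2, Per3 and Dbp all lay between the low and the high chow libraries. Neutrophil markers, of which 6 of 7 had a row, summed to 12.2 to 22.3 FPKM on chow and to 89.0, 841 and 208 in Western diet replicates 1 to 3. The 10 acute phase genes summed to 5140 to 8560 FPKM on chow and to 22600 to 129000 on Western diet. No gene of either list that was tested (5 neutrophil markers and all 10 acute phase genes) was called in this comparison. Without the 2 libraries highest in neutrophil markers (on Western diet, replicate 2 of DKO and replicate 3 of DKO/hA1), 0 of 10 members were called, and the part of the acute phase genes was not tested.

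The diet effect averaged over genotypes was largest for Dbp (1.71 ± 1.1, SE, adjusted p = 0.44), Per2 (1.22 ± 0.39, adjusted p = 0.11) and Per1 (1.05 ± 0.53, adjusted p = 0.31) on the higher side. On the lower side were Arntl (-0.99 ± 0.56, adjusted p = 0.37), Nr1d1 (-0.62 ± 0.46) and Npas2 (-0.61 ± 0.23, adjusted p = 0.175). Per3 was at 0.89 ± 0.56, Cry1 at -0.50 ± 0.33, Clock at -0.42 ± 0.22 and Nr1d2 at 0.13 ± 0.31. The order of the members depended on the code number: with it as a random term Dbp was at 0.782, below Per2 (1.07) and Per1 (1.02), with Nr1d1 at -0.842, Arntl at -0.565, Per3 at 0.44, Clock at -0.212 and Nr1d2 at -0.0984. Without DKO Western diet replicate 3, Nr1d1 was at -0.235. With limma 0 of 10 members were called beside 4.11% of all genes, and 2 (Per2 and Npas2) had an unadjusted p below 0.05 beside 19.5% of all genes. In the same comparison 7 of 12 macrophage and Kupffer cell markers, 5 of 10 acute phase genes and 1 of 5 neutrophil markers tested were called higher, and their part in the clock differences was not tested. The interaction, which asks whether the diet effect differed between genotypes, was 3.11 ± 2.20 for Dbp, -1.68 ± 1.12 for Arntl and 1.43 ± 0.78 for Per2 (adjusted p = 0.97 for each of the 3). With the code number as a random term these were 1.49, -0.925 and 1.19. In that comparison 0 of 10 members were called beside 0.0173% of all genes, and 0 had an unadjusted p below 0.05 beside 4.90%.

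The transgene was compared within each diet. On chow the fitted difference, DKO/hA1 minus DKO, was -2.01 ± 1.60 (SE) for Dbp, 1.15 ± 0.81 for Arntl, -1.16 ± 0.82 for Per3 and -0.94 ± 0.57 for Per2 (adjusted p = 0.78 to 0.84 for these 4). DKO chow replicate 3 shares its code number with both transgenic libraries here, and with that number as a random term the differences were -0.422 for Dbp, 0.286 for Arntl, -0.266 for Per3 and -0.524 for Per2. Per2 was the sole member whose groups did not overlap on chow, with 1.33 and 1.34 FPKM against 1.61 to 7.14, beside 21.7% of all genes. On Western diet the differences ran from -0.53 ± 0.77 for Arntl to 1.09 ± 1.51 for Dbp, and the groups of every member overlapped, beside 8.98% of all genes that did not. With limma 0 of 10 members were called on chow beside 0.0779% of all genes, and 0 on Western diet, where no gene was called (0%). At an unadjusted p below 0.05 there were 0 members on either diet, beside 7.43% and 5.85% of all genes. The 2 diets share no libraries in these comparisons, while each transgene comparison shares its libraries with the diet comparisons.

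**Figure D4:**
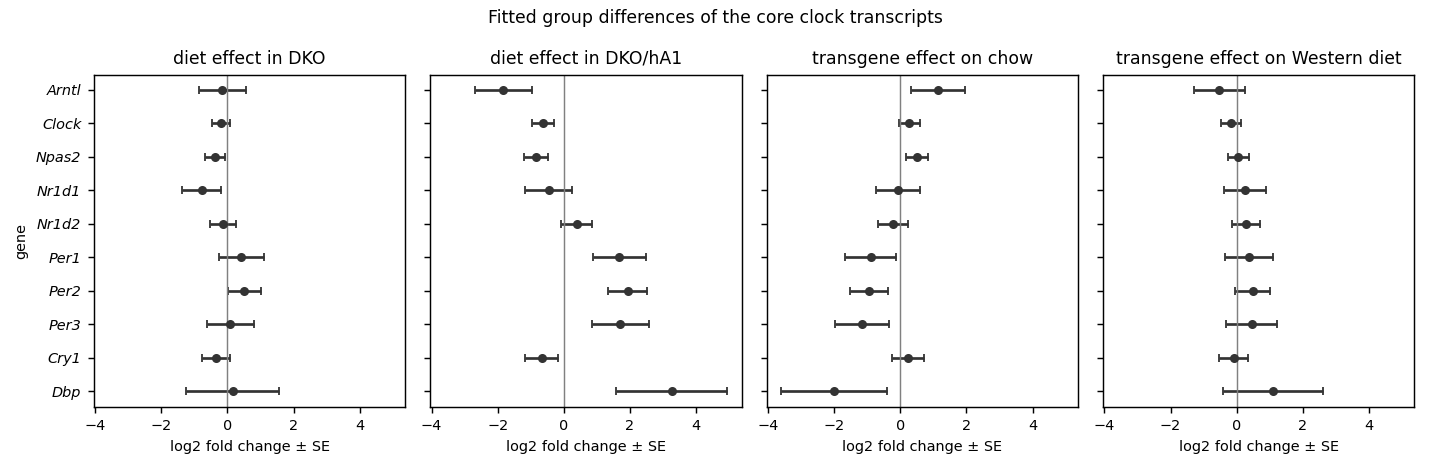
Fitted log2 fold changes (points) with standard errors (bars) of the 10 clock members in the diet effect (Western diet minus chow) and the transgene effect (DKO/hA1 minus DKO). No member passed the test in any panel; the widest bars belong to Dbp, with 3.26 ± 1.68 for diet in DKO/hA1 and 0.16 ± 1.41 in DKO.

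Further components of the clock were read from a list of 17 genes, of which 15 passed the level filter. None was called in any of the 6 comparisons. The list had a median diet effect of 0.081 (log2) in DKO/hA1 and 0.045 in DKO, beside 0.0008 and -0.0041 over all genes, with 11 and 10 of 15 positive. Its median residual SD was 0.299. Ciart, a repressor of BMAL1 and CLOCK activity that is listed in the table as Gm129, was at 19, 11.9, 0.185 and 0.610 FPKM in DKO chow and at 0.325 and 0.119 in DKO/hA1 chow. Tef, a PAR bZIP relative of Dbp, was at 51.7, 50.5, 7.16 and 9.64 FPKM in DKO chow and at 11.7 and 9.22 in DKO/hA1 chow. Both ranked the 4 DKO chow libraries as Dbp did. Bhlhe40, which encodes the repressor DEC1, was at 54.1, 64.2, 18.2 and 25.2 FPKM in DKO chow, at 26.3 and 34.8 in DKO/hA1 chow and at 52.3 to 85.6 in the 6 Western diet libraries. The averaged diet effect was 0.97 ± 0.77 (SE) for Ciart, 0.88 ± 0.30 for Bhlhe40 and 0.87 ± 0.52 for Tef, the largest 3 of the list, with adjusted p = 0.54, 0.13 and 0.41. Nfil3, which encodes a repressor acting at D-boxes and was singled out after its values were seen, ran the other way with 6.55, 7.62, 21.5 and 13.2 FPKM in DKO chow, and was highest in DKO Western diet replicate 3 at 26.8. The kinase gene Csnk1d, also named after its values were seen, stayed between 18.0 and 22.9 FPKM in all 12 libraries, so not every clock gene varied.

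Genes that the clock is known to drive also varied between replicates. All 12 of a list of output genes passed the filter, and their median residual SD was 0.894, with 12 of 12 above the median of all genes. High spread was not particular to clock genes: the median was 1.3 for neutrophil markers and for acute phase genes. It was 0.894 for glucocorticoid-inducible genes, 0.603 for endothelial markers and 0.555 for macrophage and Kupffer cell markers. Feeding and fasting genes had 0.523 and hepatocyte markers 0.244. Usp2, a deubiquitinase gene, was at 17.4, 14.1, 0.428 and 1.06 FPKM in DKO chow and at 0.813 and 0.588 in DKO/hA1 chow. Elovl3, a fatty acid elongase gene, ran opposite at 34.0, 67.2, 423 and 434 FPKM in DKO chow and 191 and 292 in DKO/hA1 chow, and it was at 15.7 to 93.9 in the 6 Western diet libraries. Alas1, the first enzyme of heme synthesis, was at 147, 93.7, 37.1 and 17.3 FPKM in DKO chow, with its highest level, 417, in DKO Western diet replicate 3. Cyp7a1, the rate-limiting enzyme of bile acid synthesis, was at 52.1, 155, 10.6 and 7.31 FPKM in DKO chow, and was singled out after its values were seen. The averaged diet effect was -2.47 ± 0.75 (SE, adjusted p = 0.10) for Elovl3, 1.21 ± 0.79 (adjusted p = 0.45) for Alas1 and 0.97 ± 0.75 (adjusted p = 0.53) for Usp2. None of the 12 was called in any comparison. The median diet effect was 0.87 in DKO/hA1, with 10 of 12 positive, and -0.21 in DKO, with 4 of 12 positive.

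**Figure D5:**
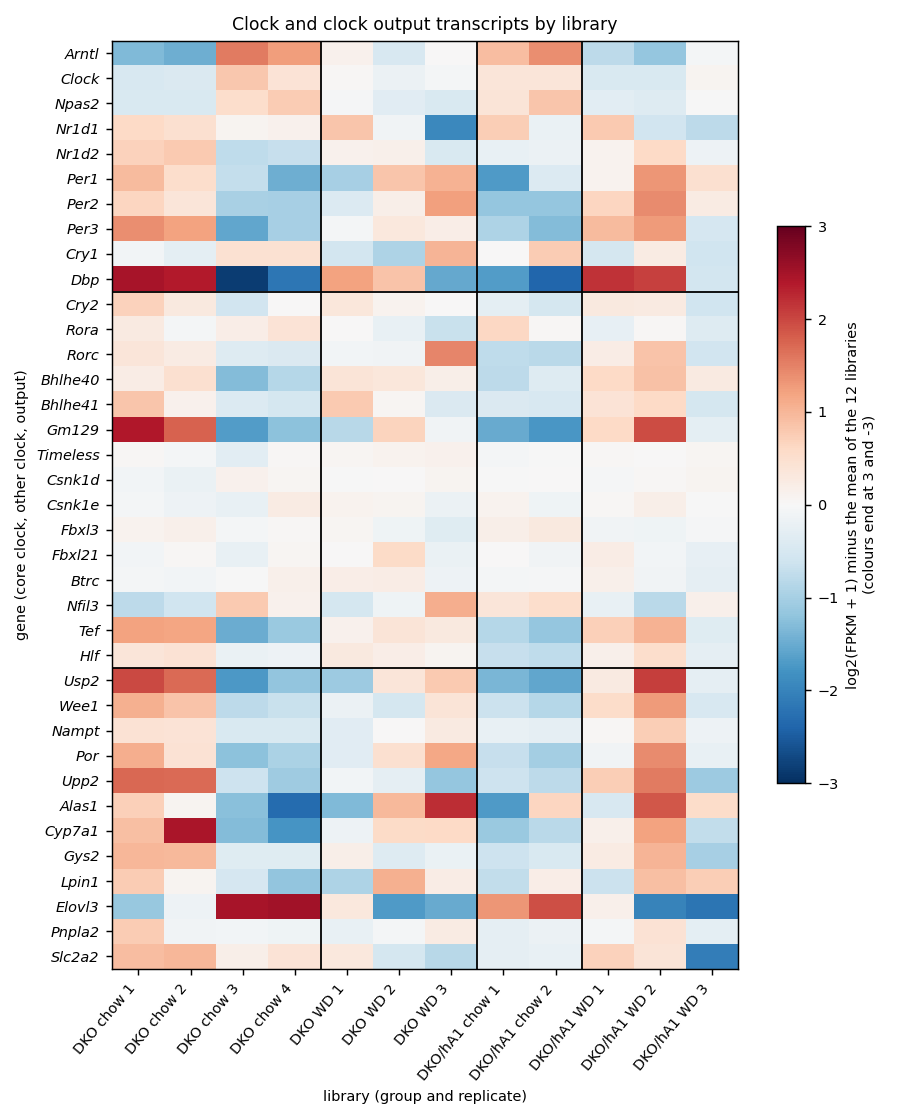
Heat map of log2(FPKM + 1), without scaling between libraries, minus the mean of the 12 libraries for the 10 clock members (top), 15 other clock components (middle) and 12 output genes (bottom), with libraries in columns ordered by group and replicate (WD, Western diet). The first and second pair of DKO chow columns have opposite colours for most clock and output rows, and both DKO/hA1 chow columns look like the second pair; Csnk1d, at 18.0 to 22.9 FPKM, stays pale.

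The genes whose levels most resembled those of Arntl and of Dbp were sought among 6560 genes with a mean of at least 5 FPKM, excluding the members. For Arntl they were Clpx, a mitochondrial chaperone gene (Pearson r = 0.955, Spearman rho = 0.958 over 12 libraries), Chka, which encodes choline kinase alpha (0.942 and 0.930), B3gat3 (0.935 and 0.923), Tubb2a (0.923 and 0.888) and Eps8l2 (0.912 and 0.853). For Dbp they included Tef (0.936 and 0.958), Bid, a proapoptotic gene (0.918 and 0.804), Narf (0.909 and 0.902) and Npc1, a lysosomal cholesterol transporter gene (0.897 and 0.839). These coefficients are descriptions with no test, since the genes were chosen for their likeness and the libraries share groups. Chka ranged from 3.58 to 35.3 FPKM and Clpx from 21.4 to 95.3, whereas Bid moved from 5.53 to 7.90.

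Genes of feeding state and of glucocorticoid response are known to touch the liver clock and were read beside it. The 12 feeding and fasting genes had mean log2 levels of 5.24, 5.39, 5.51 and 5.35 in DKO chow replicates 1 to 4. The list of 9 glucocorticoid-inducible genes, which includes Per1, had means of 5.27, 4.56, 4.38 and 4.04 in DKO chow. It was highest in DKO/hA1 Western diet replicate 3 (6.43) and DKO Western diet replicates 3 (6.20) and 2 (6.17), and none of its genes was called. The same libraries had the highest acute phase means, 12.2, 11.4 and 12.3. Mt1, Fkbp5 and Tat were picked from the glucocorticoid-inducible list by no stated rule. Mt1 reached 3680 FPKM in DKO and 3090 in DKO/hA1 on Western diet, against 462 and 151 on chow. Group means of Fkbp5 were 18.4 and 16.7 FPKM on Western diet and 6.27 and 5.01 on chow. Those of Tat stayed between 710 and 850. Hepatocyte markers summed to 16000 to 16900 FPKM in the 4 DKO chow libraries, and macrophage and Kupffer cell markers to 671, 290.0, 666 and 721. Over all 12 libraries 9 T, NK and B cell markers summed to 2.74 to 8.33 FPKM and 6 endothelial markers to 36.6 to 122. Sums were 11.5 to 45.6 for 6 stellate cell markers and 2.32 to 20.5 for 4 cholangiocyte markers. For 7 immediate early genes they were 38.9 to 120.0. The level filter left 4 T, NK and B cell markers, 3 cholangiocyte markers and 6 immediate early genes, and all endothelial and stellate cell markers. None of the genes tested from these lists was called in any comparison. The part of these lists in the clock levels was not tested.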

How the data were processed

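The authors deposited 1 table of FPKM per gene for 12 liver libraries. Per the submitters' processing notes, TopHat 1.3.2, Bowtie 0.12.8, SAMtools 0.1.19 and Cuffdiff were used with the mm10 build. The annotation, the read counts and the depth behind each value are not given in the sources used here. Libraries were grouped by labelled genotype and diet. All 12 columns were matched to samples by the sample descriptions.

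From the 23284 genes, 776 small RNA genes were left out, as were 21 genes listed at 0 throughout a group while at 1 FPKM or more in every library of another. Genes with at least 1 FPKM in at least 2 libraries were kept (11546), and all 10 members passed. FPKM values were scaled between libraries by an unweighted trimmed mean (0.3 of ratios and 0.05 of levels trimmed). Levels in the text are FPKM as deposited. Differences are log2(scaled FPKM + 1), which understates changes of low genes. limma 3.58.1 in R 4.3.3 was fitted to the 4 groups with trended, robust variances, and two-sided p-values were adjusted by Benjamini-Hochberg over all 11546 genes and called below 0.05. The code was tested on simulated data. Python 3.11.15, pandas 2.3.3 and matplotlib 3.10.9 were used for descriptions and plots.

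The members and all gene lists were chosen with earlier results of these data known. Beside the members, the text names the 5 genes most like Arntl and Dbp, and the 3 genes of each clock list with the largest averaged diet effect. Outside that rule, Nfil3, Csnk1d and Cyp7a1 are marked where they appear. Also outside it are Apoa1 and Apoe, named in the genotype label, and Thra and Sphk2, which overlap members. Mt1, Fkbp5 and Tat were picked from the glucocorticoid-inducible list by no stated rule. Some genes that the rule or the lists hold are not reported here. The alternatives tried were another value added before the log2, other scalings and level filters, another variance model, fewer groups in the fit, blocks by replicate or code number, and leaving out libraries.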

Additional observations from a re-analysis of the deposited data

How the results depend on the processing

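No member with a value was called under any alternative except 1. With a replicate block, 1 member was called for diet in DKO/hA1, Dbp at 4.43 (adjusted p = 0.0285, limma). The labels do not state that replicate numbers pair the libraries. Correlations of deviations between same-numbered libraries had both signs and ran from -0.233 to 0.447. They cannot settle pairing for the 2 DKO/hA1 chow libraries, whose deviations mirror each other. The call of Dbp is not taken up. Without single libraries the count of members called stayed at 0 in each comparison. Of 571 member values under the other alternatives 23 had another sign, as did 34 of 708 without single libraries, and for these the cause was not tested.

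For diet in DKO, Arntl changed sign to 0.14 (0.1 added before the log2), 0.27 (replicate block) and 0.0238 (leaving out the 2 libraries with most neutrophil marker RNA). Dbp gave -0.0137 with equal totals, -0.56 with the replicate block and -0.19 without those 2 libraries. Per3 gave -0.0611, -0.25 and -0.000425 in the same order and -0.00428 with the code number as a block, Per1 gave -0.00985 with the replicate block, and Cry1 0.0352 without the 2 libraries. With the code number as a block, Nr1d2 was at -0.11 for diet in DKO/hA1, 0.22 for the transgene on chow, -0.0144 for the interaction and -0.0984 for the averaged diet effect. With that block the transgene values on chow were -0.13 for Clock and 0.0798 for Nr1d1, and Npas2 on Western diet was at -0.0418, or -0.0905 without the 2 libraries. With equal totals Nr1d1 was at 0.0038 for the transgene on chow, Cry1 at 0.0354 on Western diet and Nr1d2 at -0.0192 for the averaged diet effect. Equal totals moved the median of all genes to -0.186 for diet in DKO, 0.164 for the transgene on Western diet, 0.111 for the interaction and -0.137 for the averaged diet effect.

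Without single libraries, the diet effect in DKO ranged from -0.64 to 0.36 for Arntl, -0.39 to 0.0406 for Clock, -0.91 to 0.0382 for Cry1, -0.79 (without DKO chow replicate 3) to 1.01 (without DKO Western diet replicate 3) for Dbp, -0.39 to 0.16 for Nr1d2, -0.0103 to 1.06 for Per1 and -0.44 to 0.54 for Per3. For the transgene on chow the ranges were -0.15 to 0.63 for Cry1, -0.52 to 0.38 for Nr1d1 and -0.49 to 0.0535 for Nr1d2. On Western diet they were -0.49 to 0.48 for Cry1, -0.0643 to 0.17 for Npas2, -0.51 to 0.87 for Nr1d1 and -0.27 to 0.74 for Per1. The interaction ranged from -0.73 to 0.24 for Cry1 and -0.45 to 0.94 for Nr1d1, and the averaged diet effect of Nr1d2 from -0.00188 to 0.27.

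Counts over all genes moved more. The 165 genes called for diet in DKO/hA1 became 69 with equal totals, 86 at a minimum of 5 FPKM, 86 with the replicate block, 13 with those groups alone, 19 with the code number as a block and 56 without the 2 libraries, and 6 to 193 without single libraries. The 475 of the averaged diet effect became 38 with the code number as a block and 242 without the 2 libraries, and 40 to 544 without single libraries. The 13 for diet in DKO became 7 at 5 FPKM and 31 without the 2 libraries, and 7 to 71 without single libraries. The 9 for the transgene on chow became 3 with 0.1 added, 27 with no filter, 4 at 5 FPKM, 47 with those groups alone, 27 with the code number as a block and 38 without the 2 libraries, and 2 to 33 without single libraries. The 2 of the interaction became 1 with equal totals or the replicate block and 8 with no filter, and 1 to 8 without single libraries. The higher filter removed Npas2 alone among the members. Npas2 also fell below the main filter, and has no value, without DKO chow replicate 4 or without DKO/hA1 chow replicate 2. The same holds in the fits of only the groups compared, except for the transgene on chow. Absolute depth is unknown, so counting error of the low Npas2 values cannot be given.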
